A study of Mus musculus with 6 samples.

Results

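Ribosomal protein pseudogenes were examined in RNA sequencing libraries that carry the label of oligodendrocyte progenitor cells, or OPCs, from which myelin-forming oligodendrocytes develop. Rows of the expression table were taken by name alone, as symbols of a large-subunit (Rpl) or small-subunit (Rps) ribosomal protein gene followed by -ps and an optional number, and 204 of 34250 rows matched. The study compared 3 control libraries with 3 libraries of cells given fibrinogen, a blood clotting protein. All 6 libraries are labelled as brain of C57BL/6 mice, with no genotype given beyond the strain, and their column names carry a mouse number and, for fibrinogen, an amount of 2.5 mg. The methods describe cortical OPC cultures from newborn pups, given fibrinogen or vehicle. The methods state in general terms that experiments were repeated independently, but neither they nor the labels say which cultures or litters gave these libraries, or whether both groups came from the same substrain, so p-values cover the spread among these libraries only, and part of it may be technical.

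A processed pseudogene arises when a messenger RNA is copied back into DNA and inserted elsewhere in the genome, without introns and usually without its own promoter. Ribosomal protein genes are transcribed at high levels in nearly every cell and have left many such copies in mammalian genomes. A young copy can match the coding sequence of its source gene (here, the parent) almost base for base, so a short read from the parent's messenger can align to the copy as well. Copies also differ between mouse strains, both in presence and in sequence. A row named for a pseudogene therefore holds reads placed at that copy, which need not be reads transcribed from it.

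The libraries held 36670999 to 44448983 reads counted on genes. The labelled cell type was checked against marker genes. The median level of 12 OPC markers was 2.75 to 5.79 RPKM (counted reads scaled to the exon length of a row and to the size of its library), against 92.8 to 100.5 RPKM for 12 neuron markers, so neuron markers stood far above those of the labelled cell type. Summed OPC markers were 63.4 to 65.3 RPKM in control and 90.1 to 94.1 RPKM in fibrinogen libraries. Of the 12, 11 were tested and 7 passed as higher, as did 5.87% of all tested rows. Summed neuron markers overlapped between the groups, at 2210 to 2426 and 2113 to 2638 RPKM, and summed astrocyte markers did not, at 506 to 594 and 441 to 480 RPKM (1 of 8 passed as higher and 1 as lower). Of 8 markers of mature oligodendrocytes 3 passed as higher. The part of these marker differences in any result below was not tested, and fewer cells of a type cannot be told apart from less RNA per cell in bulk libraries. Low rows held mostly even numbers of reads (65.4% to 68.2% of rows with 1 to 40 reads, and 80.7% to 86.7% of such pseudogene rows), so both mates of a read pair may have been counted, and a count of 2 may be a single fragment.

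The 204 pseudogene rows named 57 parents, 56 of which had a row of their own. Rpl31, a large-subunit protein, had the most copies at 17, followed by Rpl21 and Rps12 with 14 each, while 18 parents had 1 copy. The rows were short, with a median length of 467.5 bases, and 198 of 204 consisted of a single interval. They were scattered over the genome, with 20 on chromosome X, 17 on chromosome 11 and 15 each on chromosomes 1 and 3. Only 7 lay on the chromosome of their parent. Reads counted on pseudogenes made up 0.0363% to 0.0418% of all reads, and reads counted on their parents 0.577% to 0.765%. Per 100 parent reads there were 5.37 to 6.35 pseudogene reads, lowest in control library 2 and highest in control library 3. The 5 most-read pseudogenes held 61.7% of the pseudogene reads.

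Most pseudogene rows were nearly silent. In 11 no library had a read, 84 had 1 to 20 reads over all 6 libraries, and 98 had a read in every library. The median level in a library was 0.162 to 0.27 RPKM, and 28.9% to 32.8% of the rows had no read there. For comparison, 375 rows of olfactory, vomeronasal and taste receptor genes, which are transcribed mainly in sensory tissues, had a median of 0 RPKM in each library and no read in 62.9% to 76.3% of rows. Levels of pseudogene rows thus lay above those of receptor rows in every library. Only 51 of the 204 reached 1 RPKM in at least 3 of 6 libraries, the minimum for a test, and these 51 held 96.1% of all pseudogene reads. Of them, 37 reached 1 RPKM in all 6 libraries, and 3 (Rpl21-ps8, Rps13-ps5 and Rps16-ps2) reached the minimum only through the control group, where they were higher.

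The level of a pseudogene row went with its closeness to the parent. A GENCODE M39 transcript of the same length as the row could be aligned with a parent transcript for 177 members. Among the 12 copies without any difference from the parent, 10 reached the minimum for a test and the median of the mean level over libraries was 3.49 RPKM. Among 44 copies with 1 to 5 differing or missing bases, 17 reached it and the median was 0.658 RPKM. Of 58 copies with 6 to 20 such bases 11 reached it, with a median of 0.152 RPKM, and of 63 more distant copies 3 reached it, with a median of 0.0439 RPKM. Where the reading frame could be judged, 78 copies kept an open reading frame and 34 did not, and 27 of the former but 1 of the latter reached the minimum. These are descriptions over rows that share libraries and parents, and carry no test.

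**Figure D1:**
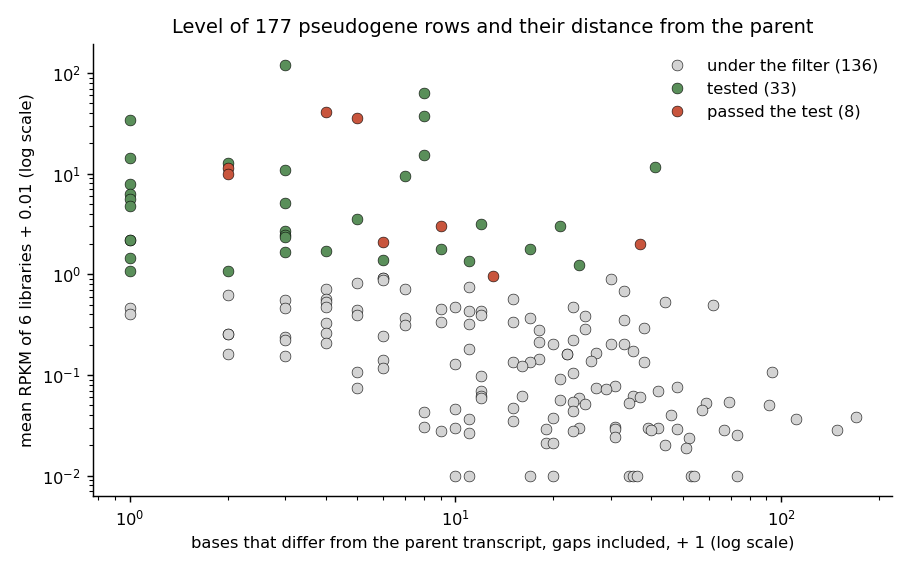
Mean RPKM over the 6 libraries (vertical, log scale, 0.01 added) of 177 ribosomal protein pseudogene rows against the number of bases, gaps included, by which each differed from its parent transcript (horizontal, log scale, 1 added). Copies without a difference stand at the left edge, and 10 of those 12 were tested, against 3 of 63 copies with over 20 differing bases.

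How far a row can be told apart by sequence was described with windows of 32 bases that occur once in the mouse genome (GRCm39). This length was a setting and not the length of a read. A longer read can span several differences, so a row without such a window may still hold reads that can be placed. Among the 41 tested members with a sequence, 13 had no such window at all. No stretch of this length told those 13 from the parent or another copy. In some others each window found once also lay in a parent transcript, so it did not tell the copy from its parent. In Rpl10a-ps1, 12.7% of windows were found once, and 0% were found once and absent from the parent. The same absence held for Rpl36a-ps2, Rpl31-ps8, Rps13-ps2 and Rps16-ps2. Only 2 of the 41 had at least 50% of their windows found once. For 3 of the 177 copies a ribosomal protein gene other than the one in the name shared the most windows. Rpl36a-ps3, picked out for this after its values were seen, was the tested one among them. It shared 89% of its windows with Rpl36al and 0% with Rpl36a, from which 40 of 321 bases differed, and stood at 13, 10.5 and 12 RPKM in control and at 12.4, 9.67 and 11.5 RPKM in fibrinogen libraries, which overlapped.

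The most abundant pseudogene row was Rpl34-ps1 (chr6:71124610-71124963, GRCm38, plus strand), a copy of the large-subunit gene Rpl34. Its control libraries stood at 142, 131 and 96.4 RPKM and its fibrinogen libraries at 140, 110 and 110 RPKM. The ranges overlapped. Per length, the level was above that of Rpl34 itself, which measured 36.8, 37.3 and 29.5 RPKM in control and 35.1, 30.5 and 32.5 RPKM in fibrinogen libraries. In reads, which grow with the length of a row, the 2 named copies held 30.7% to 34.9% of the total of Rpl34 and these copies. Rpl34-ps1 differed from Rpl34 by 2 of 354 bases (T132C and C318G, counted from the A of the parent's start codon with the parent's base first). None of its windows was found once.

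Copies of Rps2, a small-subunit protein near the messenger entry of the ribosome, were counted far more often than Rps2 itself. The 8 named copies together held 88.5% to 93.2% of the reads of Rps2 and these copies. Rps2-ps10 measured 113, 98.5 and 90.1 RPKM in control and 94.2, 87.6 and 96.8 RPKM in fibrinogen libraries, and its groups overlapped. Rps2-ps13 on chromosome X measured 71.2, 73.4 and 62.1 RPKM in control and 55.6, 52.4 and 61.7 RPKM in fibrinogen libraries. Its groups did not overlap, but the log2 difference of -0.28 (SE 0.10, adjusted p = 0.11) did not pass. Without control library 3 the adjusted p was 0.0472 and the log2 difference -0.35. Rps2 itself rose from 7.12, 6.35 and 6.6 RPKM to 10, 9.37 and 8.08 RPKM (log2 change 0.40, SE 0.09, adjusted p = 0.0401), and passed in only 1 of the 6 fits that left out a library, with adjusted p from 0.0489 (without fibrinogen library 3) to 0.125 (without fibrinogen library 1).

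The 10 most abundant rows also included those that follow, beside others described further on. Rpl14-ps1 measured 35.6 to 45.8 RPKM in control and 31.4 to 36.6 RPKM in fibrinogen libraries. Rps6-ps4, whose 750 bases were identical to its parent, measured 28.9 to 41 RPKM and 28.6 to 35.4 RPKM. Rps23-ps1, also without a difference, measured 12 to 16.4 RPKM and 12.8 to 14.6 RPKM. Rpl19-ps11 measured 9.66 to 13.9 RPKM and 12.6 to 14.3 RPKM. In all of them the groups overlapped and the test was not passed (adjusted p from 0.181 to 0.871).

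Fibrinogen was compared with control by limma on log2(RPKM + 1) over all 14710 rows that reached the minimum, with a Benjamini-Hochberg adjusted p under 0.05 as the threshold. Over all tested rows 11.5% passed, 5.87% as higher and 5.62% as lower. Among the 51 tested pseudogene rows 5 were higher and 4 lower, which is 17.6%. The higher rows were Rps24-ps3, Rpl35a-ps2, Rpl21-ps6, Rpl35a-ps6 and Rps10-ps2, and the lower rows included Rpl21-ps8, Rpl21-ps15 and Rps13-ps5. Over the 51 rows the median log2 difference was -0.04, against -0.01 over all tested rows, and 39 of the 42 rows that did not pass differed by less than 0.5. The libraries of the groups did not overlap for 8 pseudogenes that were higher and 9 that were lower (33.3%), against 35.1% of all tested rows. Rpl21-ps8 and Rps13-ps5 were tested only because of their control libraries, so that they had to differ. The calls of Rps24-ps3 and Rpl35a-ps2 passed in all 6 fits that left out a library. Rpl21-ps6, Rpl35a-ps6, Rps10-ps2, Rpl21-ps15 and Rps13-ps5 each lost the call in at least 4 of these fits.

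**Figure D2:**
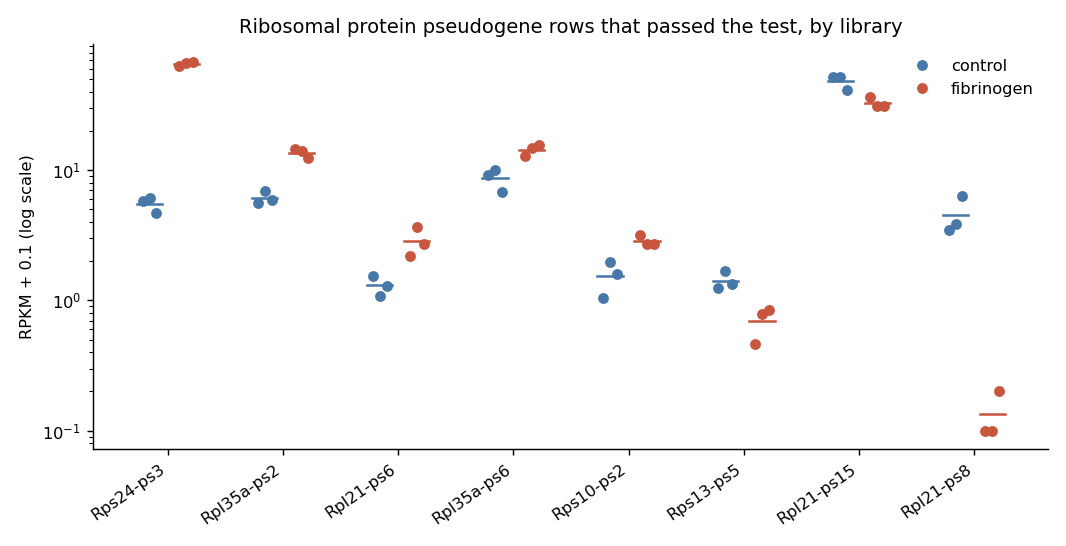
RPKM in each library (vertical, log scale, 0.1 added) of 8 ribosomal protein pseudogene rows that passed the test, 3 control and 3 fibrinogen libraries each, with lines at the group means. In each row shown the 2 groups are apart, from 4.6 to 5.99 against 63.6 to 67.3 RPKM for Rps24-ps3 down to 41.3 to 52.1 against 30.8 to 36.1 RPKM for Rpl21-ps15.

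Rps24-ps3 showed the largest difference among the pseudogene rows. It lies at chrX:79195047-79195448 (GRCm38, plus strand), far from Rps24 on chromosome 14, a small-subunit gene that is mutated in some families with Diamond-Blackfan anaemia. Control libraries measured 5.72, 5.99 and 4.6 RPKM (88, 94 and 79 reads) and fibrinogen libraries 63.6, 66.7 and 67.3 RPKM (938, 1192 and 1114 reads). Each fibrinogen library was more than 10 times above each control library. The log2 change was 3.38 (SE 0.10, adjusted p = 4.9e-05), and the adjusted p was at most 0.000917 with any 1 library left out. Over its 402 bases the copy differs from the Rps24 coding sequence at 4 positions (C207T, G273C, G360T and C380T). Of its windows 26.4% were found once in the genome, and 25.1% were found once and absent from Rps24 transcripts. A stretch of the coding part is shown because it holds all 4, in capitals, and reads over these bases can tell the rows apart:
Rps24: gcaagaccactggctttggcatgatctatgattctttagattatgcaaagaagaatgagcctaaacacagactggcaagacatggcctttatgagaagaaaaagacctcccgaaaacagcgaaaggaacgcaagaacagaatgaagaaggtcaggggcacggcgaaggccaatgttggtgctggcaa
Rps24-ps3: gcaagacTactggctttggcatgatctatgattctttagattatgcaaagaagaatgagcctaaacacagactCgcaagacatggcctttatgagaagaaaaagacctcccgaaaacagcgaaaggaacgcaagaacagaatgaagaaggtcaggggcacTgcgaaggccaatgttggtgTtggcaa

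The parent did not follow. Rps24 measured 418, 379 and 300 RPKM in control and 335, 296 and 328 RPKM in fibrinogen libraries, and the groups overlapped (log2 difference -0.18, SE 0.13, adjusted p = 0.41). As a share of the parent's RPKM, Rps24-ps3 stood at 1.37% to 1.58% in control and at 19% to 22.6% in fibrinogen libraries. Added together, Rps24 and its 2 named copies held 354, 321 and 254 RPM (reads counted on the rows, scaled to library size as in RPKM but not to length) in control and 307, 276 and 303 RPM in fibrinogen libraries, which overlapped (exact two-sided permutation p = 0.8). The 2 copies held 2.62 RPM on average in control and 27 RPM in fibrinogen libraries. The SD of the sum over control libraries was 50.9 RPM, so overlap of the sums tells little about the copies. The other copy, Rps24-ps2, had 20 differing bases and 3 missing ones. It stood at 1.1 ± 0.21 RPKM in control and 1.36 ± 0.509 RPKM in fibrinogen libraries (mean ± SD, n = 3). No row of the table overlapped Rps24-ps3. The nearest tested rows, Prkx at 1399 kb before it and Gm14760 at 998 kb after it, had log2 differences of -0.08 and -0.14 and did not pass (adjusted p = 0.641 and 0.55).

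Rpl35a, a large-subunit protein gene on chromosome 16, fell while copies of it rose. Rpl35a measured 5.4, 4.99 and 4.02 RPKM in control and 3.16, 2.53 and 3 RPKM in fibrinogen libraries (log2 change -0.57, SE 0.12, adjusted p = 0.0281). Rpl35a-ps2 (chr1:181241988-181242320, GRCm38, minus strand) rose from 5.5, 6.84 and 5.76 RPKM to 14.6, 13.9 and 12.2 RPKM (log2 change 1.05, SE 0.10, adjusted p = 0.00284). Rpl35a-ps6 (chr5:123255481-123255813, minus strand) rose from 9.11, 10 and 6.74 RPKM to 12.8, 14.7 and 15.5 RPKM (log2 change 0.68, SE 0.14, adjusted p = 0.029). The groups did not overlap in any of the 3 rows. A copy with the same sequence, Rpl35a-ps3 on chromosome 17, stood at 0.942, 1.54 and 0.562 RPKM in control and 1.15, 1.35 and 0.875 RPKM in fibrinogen libraries (log2 difference 0.10, adjusted p = 0.763). All 3 copies differ from the 333 coding bases of Rpl35a by the same single base (G156A), share 89.4% of their windows with it, and have no window that is found once. The 40 bases around this position are shown because no other base of the coding part separates copies from parent, with the differing base in capitals:
Rpl35a: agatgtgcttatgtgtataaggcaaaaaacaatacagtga
Rpl35a-ps2: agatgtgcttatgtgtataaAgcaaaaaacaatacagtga
Rpl35a-ps3: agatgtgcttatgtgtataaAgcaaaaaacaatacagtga
Rpl35a-ps6: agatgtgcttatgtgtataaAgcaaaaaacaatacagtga

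Counted together, reads of Rpl35a and its named copies overlapped between the groups. The parent held 14.2 to 19 RPM in control and 8.91 to 11.2 in fibrinogen libraries, and its 6 named copies 4.73 to 6.17 and 9.62 to 10.2. The sum was 24.5, 23.8 and 18.9 RPM in control and 20.9, 19.1 and 20.2 in fibrinogen libraries. These ranges overlapped (exact two-sided permutation p = 0.4), and with 3 libraries a group this test cannot go below 0.1. Copies outside the name rule, such as Gm10029, were not in the sum. Left-out libraries mattered for 2 of the rows. Rpl35a-ps6 passed only without control library 2 or control library 3, and its adjusted p reached 0.099 without fibrinogen library 3. Rpl35a itself passed only without control library 3 (adjusted p = 0.0127) and reached 0.1 without control library 1. Rpl35a-ps2 passed in all 6 fits, with adjusted p from 0.00593 to 0.0188.

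**Figure D3:**
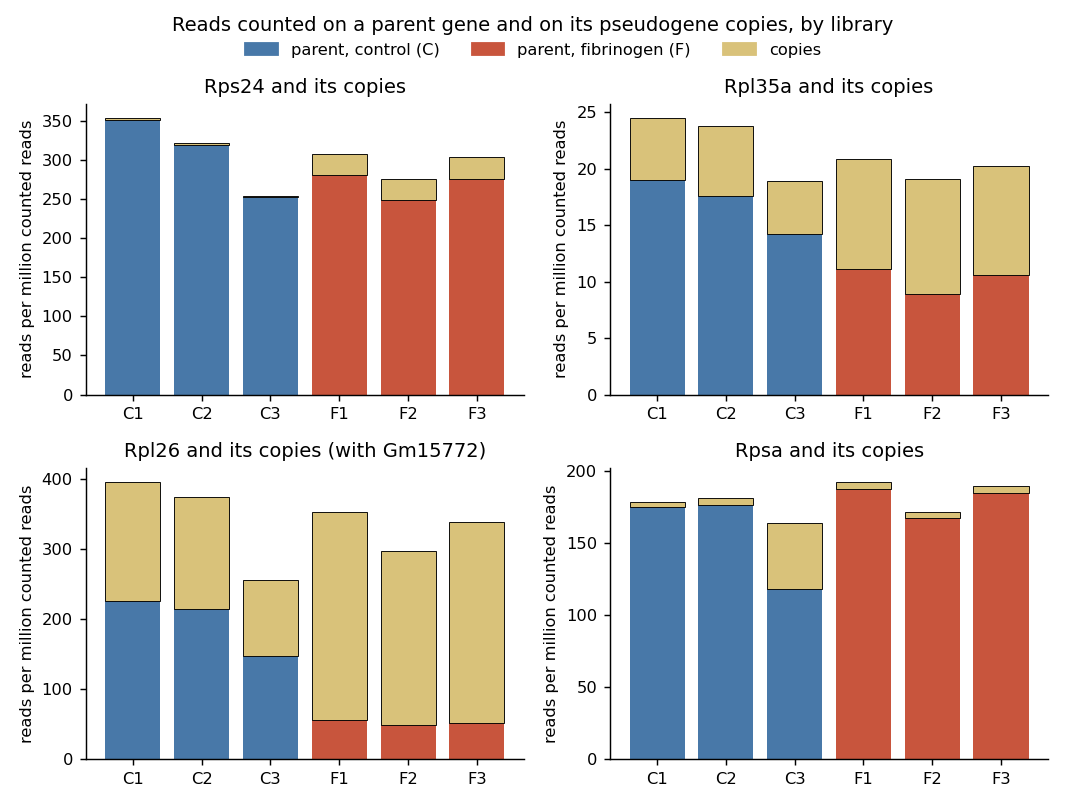
Stacked bars of RPM in each library for 4 parents (blue in control, red in fibrinogen libraries) and their copies (yellow), with a separate scale for each family. Copies are higher in fibrinogen libraries for Rps24, Rpl35a and Rpl26 and in control library 3 for Rpsa. The full bars of the groups overlap in Rps24 (254 to 354 against 276 to 307) and in Rpl26 (256 to 396 against 297 to 354). In Rps24 the copies are a small part of the bars.

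Copies of Rpl21 passed in both directions. Rpl21, a large-subunit gene on chromosome 5, had 14 copies, 4 of them tested, and itself measured 150, 148 and 113 RPKM in control and 110, 97.3 and 110 RPKM in fibrinogen libraries (log2 difference -0.36, SE 0.13, adjusted p = 0.109). Rpl21-ps15 (chrX:151215167-151215649, GRCm38, minus strand) fell from 52.1, 51.6 and 41.3 RPKM to 36.1, 30.8 and 31.2 RPKM (log2 change -0.55, SE 0.11, adjusted p = 0.0293). Rpl21-ps6 (chr17:55915403-55915870, minus strand) rose from 1.45, 0.985 and 1.2 RPKM to 2.1, 3.56 and 2.59 RPKM (log2 change 0.75, SE 0.16, adjusted p = 0.0302). Rpl21-ps10 (chr3:38107443-38107922, minus strand) measured 13.3, 11 and 0.634 RPKM in control and 22.2, 21.1 and 24.5 RPKM in fibrinogen libraries. All fibrinogen libraries of Rpl21-ps10 were above all control libraries, but control library 3 lay far below the other control libraries, and the difference did not pass (log2 difference 1.85, SE 0.76, adjusted p = 0.157). Without that library the log2 difference was 0.84 and the adjusted p 0.00739. All 3 copies carry T336C, while G237A and G282T are in Rpl21-ps10 only of these 3 and C231T in Rpl21-ps6 only. A stretch of 120 bases is shown because the 3 copies can be told apart there, with differences from Rpl21 in capitals:
Rpl21: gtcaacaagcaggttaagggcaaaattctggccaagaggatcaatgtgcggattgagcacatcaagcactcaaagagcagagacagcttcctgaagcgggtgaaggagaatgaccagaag
Rpl21-ps15: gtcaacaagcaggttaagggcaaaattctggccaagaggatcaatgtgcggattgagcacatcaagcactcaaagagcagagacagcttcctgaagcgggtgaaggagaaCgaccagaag
Rpl21-ps6: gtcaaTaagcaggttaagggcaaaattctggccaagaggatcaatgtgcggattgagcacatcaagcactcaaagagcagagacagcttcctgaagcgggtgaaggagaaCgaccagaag
Rpl21-ps10: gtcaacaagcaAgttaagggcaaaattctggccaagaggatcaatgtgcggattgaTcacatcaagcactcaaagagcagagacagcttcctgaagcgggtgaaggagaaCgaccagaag

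Summed over Rpl21 and its 14 named copies, levels in RPM were 546, 535 and 409 in control and 402, 359 and 403 in fibrinogen libraries. This sum was lower without overlap (exact two-sided permutation p = 0.1, the smallest possible), but copies outside the name rule were not in it. Of those, Gm13370 held 1264, 1281 and 257 reads in control and 1940, 1970 and 2436 in fibrinogen libraries. Gm10240 and Gm10163 were likewise higher in each fibrinogen library, and Gm14648, Gm5857 and Gm9104 were lower. The higher ones did not pass and the lower ones did. No window of Rpl21-ps15 was found once in the genome, against 27.9% of Rpl21-ps6 and 23.6% of Rpl21-ps10. Rpl21-ps15 lies inside the span of Wnk3, a kinase gene, on the opposite strand and outside its exons, and Wnk3 did not pass (2.31 to 2.5 RPKM in control and 2.51 to 2.94 RPKM in fibrinogen libraries, adjusted p = 0.524). Leaving out a library changed both calls. Rpl21-ps15 passed only without control library 3 (adjusted p = 0.00966), and reached 0.107 without control library 1. Rpl21-ps6 passed only without control library 3 (0.0444) or fibrinogen library 1 (0.0438), and reached 0.0897 without fibrinogen library 3.

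Rpl21-ps8 was nearly lost in fibrinogen libraries. This copy, at chr18:82523544-82524021 (GRCm38, minus strand), measured 3.39, 3.75 and 6.26 RPKM in control (62, 70 and 128 reads) and 0, 0 and 0.102 RPKM in fibrinogen libraries (0, 0 and 2 reads). The groups were far apart, and the log2 change on the scale with 1 RPKM added was -2.37 (SE 0.19, adjusted p = 0.00151), with adjusted p at most 0.0112 with any 1 library left out. Per counted read the fibrinogen libraries held 0.755% of the control level (exact 95% interval 0.019% to 4.28%, from 1 against 130 fragments, since all counts of the row were even, and for counting error only). The row passed the minimum through its control libraries alone. It lies inside the span of Mbp, which encodes a main protein of myelin, on the opposite strand and outside its exons. Mbp measured 50.9 to 83.7 RPKM in control and 53.4 to 87.1 RPKM in fibrinogen libraries and did not pass (log2 difference 0.14, SE 0.23, adjusted p = 0.727).

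Rps13-ps5, a copy of the small-subunit gene Rps13 at chr11:61205720-61206175 (GRCm38, minus strand), fell from 1.15, 1.57 and 1.23 RPKM to 0.359, 0.691 and 0.745 RPKM, or from 20, 28 and 24 reads to 6, 14 and 14 reads (log2 change -0.54, SE 0.14, adjusted p = 0.0484). This was the weakest of the 9 calls. It was lost with each of the 6 libraries left out, at adjusted p from 0.061 (without control library 3) to 0.136 (without control library 2), and the row reached the minimum through control libraries only. Its parent Rps13 measured 9.3 to 11.8 RPKM in control and 8.46 to 10.4 RPKM in fibrinogen libraries (log2 difference -0.13, adjusted p = 0.482).

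Rps10-ps2, a copy of the small-subunit gene Rps10, rose from 0.949, 1.86 and 1.51 RPKM (18, 36 and 32 reads) to 3.08, 2.63 and 2.59 RPKM (56, 58 and 53 reads). The groups did not overlap (log2 change 0.64, SE 0.15, adjusted p = 0.0392). With a library left out it passed only without control library 2 or 3, and the adjusted p reached 0.125 without fibrinogen library 1. Rps10, on chromosome 17, measured 25.1, 25.6 and 19.6 RPKM in control and 24.8, 21.6 and 23.2 RPKM in fibrinogen libraries (adjusted p = 0.984). The copy lies at chr16:20822145-20822640 (GRCm38, minus strand) and differed from Rps10 by 5 of 496 bases, and 21.3% of its windows were found once. A stretch of 76 bases is shown because 3 of its 5 differences (T408C, C437G and A438G, in capitals) lie there:
Rps10: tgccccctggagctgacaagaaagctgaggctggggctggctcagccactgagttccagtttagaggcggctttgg
Rps10-ps2: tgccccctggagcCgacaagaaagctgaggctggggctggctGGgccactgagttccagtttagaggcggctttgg

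Rows around the 9 pseudogenes that passed were examined next. In 6 of the 9 no other row overlapped the pseudogene, and in the other 3 the host genes (Wnk3, Mbp and Wdr66 around Rpl35a-ps6) lay on the opposite strand and did not pass. Wdr66 measured 1.25 to 1.86 RPKM in control and 1.5 to 2.57 RPKM in fibrinogen libraries (adjusted p = 0.256). Of the 18 nearest tested rows, 1 on each side of each pseudogene, 2 passed (11.1%), close to the share of all tested rows: Usp22, a histone deubiquitinase gene 30.7 kb from Rps13-ps5, which rose (log2 change 0.36, adjusted p = 0.041), and Wdr26, 30.4 kb from Rpl35a-ps2, which fell (log2 change -0.41, adjusted p = 0.0371). Each moved opposite to its pseudogene. None of the 9 lay on the chromosome of its parent. Among all 204 pseudogene rows 68 overlapped the span of another row, 24 of them on the same strand, and 8 overlapped an exon of another row. The library kit keeps the strand, but the strand setting used in counting is not given in the sources used here.

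Few parents passed. Of the 56 parents, all tested, 3 passed: Rps2 as higher, and Rpl35a and Rpl26 as lower (5.4%, against 11.5% of all rows). The median log2 difference over parents was -0.13, and the groups did not overlap in 7 of them (12.5%, against 35.1% of all tested rows). No pseudogene row that passed had a parent that passed in the same direction, and the 2 Rpl35a copies moved opposite to theirs. Without control library 3, 8 parents passed, all as lower (14.3%), while the calls over all rows went from 1689 to 2300 (15.6%). In that library parents held 0.588% of counted reads, against 0.744% and 0.765% in the other control libraries and 0.577% to 0.655% in fibrinogen libraries.

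**Figure D4:**
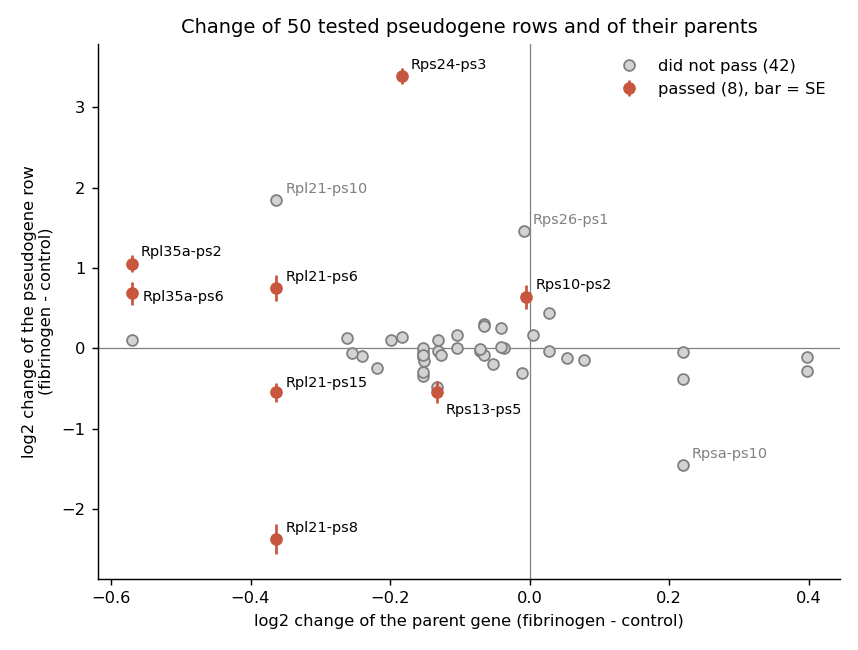
Log2 change of 50 tested pseudogene rows (vertical, fibrinogen minus control) against that of its parent gene (horizontal), with 8 rows that passed in red (bars are SE) and the 42 others in grey. Most rows lie near 0 on both axes, while the red rows spread from -2.37 to 3.38 at parent changes from -0.57 to almost 0.

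The ratio of a pseudogene to its parent within each library sets aside changes shared by both. For 51 pairs over 29 parents, the log2 ratio of RPKM (1 RPKM added to each) did not overlap between groups in 18 pairs, 11 higher and 7 lower in fibrinogen libraries, and the median difference was 0.07. All 9 rows that passed were among the 18, but each already lay apart by its own RPKM, so this is no separate test. By their own RPKM, 35.1% of all tested rows lay apart. With 3 libraries against 3 the exact permutation test cannot go below p = 0.1, which is what these 18 pairs gave. The largest shifts toward the copy, after Rps24-ps3 (3.57), were 2.21 for Rpl21-ps10, 1.62 for Rpl35a-ps2, 1.47 for Rps26-ps1 and 1.25 for Rpl35a-ps6. Rpl35a-ps3, which did not pass itself, shifted by 0.67 against its falling parent. Toward the parent, Rpl21-ps8 had the largest shift, followed by Rpsa-ps10 at -1.67, whose groups overlapped.

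The largest change of a parent had a counterpart in a copy that carries no pseudogene name. Rpl26, a large-subunit gene on chromosome 11, fell from 157, 148 and 102 RPKM to 38.2, 33.8 and 35.4 RPKM (log2 change -1.87, SE 0.16, adjusted p = 0.00188), which passed with each library left out. Its 4 named copies were close to silent, with 2 to 10 reads each over all 6 libraries. Gm15772, an unnamed processed pseudogene on chromosome 5 that was singled out after its values were seen, rose from 388, 366 and 248 RPKM to 682, 567 and 656 RPKM (log2 change 0.95, SE 0.18, adjusted p = 0.0208). That call was lost without fibrinogen library 1 (adjusted p = 0.0796) or fibrinogen library 3 (0.0747). The sum of Rpl26, Gm15772 and the named copies was 396, 374 and 256 RPM in control and 354, 297 and 339 in fibrinogen libraries (exact two-sided permutation p = 0.9). Since Gm15772 was chosen by its values, this sum is no separate test. Other unnamed copies of Rpl26 were not in the sum. Among them Gm11826 and Gm13268 had log2 differences of 0.37 and 0.49 and did not pass (adjusted p = 0.306 and 0.15). Left out as well was Gm10136. It fell from 13.8, 14.2 and 11.1 RPKM to 8.27, 8.17 and 10.2 RPKM and passed as lower (adjusted p = 0.0415). Gm15772 has the length of the Rpl26 coding part, 438 bases, and differs from it at 2 (C177T and T288C). A stretch of 132 bases is shown because it holds both, in capitals:
Rpl26: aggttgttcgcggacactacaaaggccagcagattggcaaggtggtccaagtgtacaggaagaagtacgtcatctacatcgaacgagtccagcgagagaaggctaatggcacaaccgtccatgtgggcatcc
Gm15772: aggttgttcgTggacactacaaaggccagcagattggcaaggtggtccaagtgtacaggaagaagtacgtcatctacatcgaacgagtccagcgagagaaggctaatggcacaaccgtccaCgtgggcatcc

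Other copies outside the name rule also passed in both directions. Those named here were chosen after their values were seen. In all, 225 rows annotated as pseudogenes shared at least 30% of their 32-base windows with a parent, and of 55 tested 3 passed as higher and 6 as lower (16.4%, against 11.5% of all rows). Gm12366 reached the minimum through fibrinogen libraries alone, and Gm14165 and Gm9104, both lower, through control libraries alone. Apart from Gm15772, the higher rows were Gm12366, a copy of Rps2 that rose from 0.599, 0.587 and 0.429 RPKM to 3.19, 2.35 and 2.86 RPKM (log2 change 1.30, adjusted p = 0.0021), and Gm8292, a copy of Rps24. Gm8730, a copy of the ribosomal stalk gene Rplp0, fell from 15.8, 14.8 and 13.9 RPKM to 6.57, 6.37 and 6.82 RPKM (log2 change -1.06, adjusted p = 0.000913). The remaining lower rows were copies of Rpl21 (3 rows), Rpl26 and Rplp0, with log2 changes from -0.95 to -0.50.

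Control library 3 stood apart from the other control libraries in single pseudogene rows, which were picked out for that after their values were seen. Rpsa-ps10, a copy of the small-subunit and laminin receptor gene Rpsa at chr3:150072658-150073542 (GRCm38, minus strand), measured 1.89, 2.6 and 46.1 RPKM in control (64, 90 and 1743 reads) and 2.13, 1.68 and 1.87 RPKM in fibrinogen libraries. Rpsa-ps2 likewise stood at 0.974, 1.05 and 4.36 RPKM against 0.909, 1.06 and 1.52 RPKM. Rpl21-ps10, given above, and Rps26-ps1 went the other way, the latter with 5.94, 5.47 and 0.521 RPKM in control and 10.4, 8.62 and 12 RPKM in fibrinogen libraries. None of the 4 passed with all libraries. Without control library 3, Rps26-ps1 passed as higher (log2 difference 0.75, adjusted p = 0.0188), as did Rpl21-ps10, while Rpsa-ps10 had a log2 difference of -0.16 (adjusted p = 0.432). Rpsa-ps10 differs from Rpsa at 6 of 885 bases, and 11% of its windows were found once. A stretch of the coding part is shown because 3 of the 6 (T210C, C219T and C345G, in capitals) lie there:
Rpsa: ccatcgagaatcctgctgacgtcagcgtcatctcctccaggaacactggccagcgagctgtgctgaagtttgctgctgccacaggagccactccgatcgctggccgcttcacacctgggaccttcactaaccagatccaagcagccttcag
Rpsa-ps10: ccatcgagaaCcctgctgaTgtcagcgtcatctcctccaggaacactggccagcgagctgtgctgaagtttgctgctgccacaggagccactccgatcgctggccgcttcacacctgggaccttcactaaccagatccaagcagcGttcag

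In the same library the parent was low. Parents as a group were also low there, at 0.588% of counted reads against 0.765% and 0.744% in control libraries 1 and 2. In fibrinogen libraries they held 0.577% to 0.655%. A low parent in control library 3 was thus not particular to Rpsa. Whether reads moved between Rpsa and its copies was not tested. Rpsa held 175, 177 and 118 RPM in control and 188, 167 and 185 in fibrinogen libraries, and its 9 copies 3.84, 4.43 and 45.8 in control and 4.21 to 4.66 in fibrinogen libraries. The sum was 179, 181 and 164 RPM in control and 171 to 193 in fibrinogen libraries. Over control libraries its SD was 9.26 RPM, against 33.3 for the parent and 24.1 for the copies. Over fibrinogen libraries these SDs were 11.4, 11.2 and 0.237 RPM. Since Rpsa-ps10 was picked by its value in control library 3, this sum is no separate test. Rps26, the small-subunit parent of Rps26-ps1, stood at 51.4, 55.5 and 47.9 RPKM in control and 46.3 to 54.1 RPKM in fibrinogen libraries. Over the whole table, 54 rows with at least 2 RPKM in some library were at least 4-fold outside the range of the other 5 libraries in control library 3. Of these, 3 were pseudogene rows taken by name. The other libraries had 6 to 24 such rows each and none of the pseudogenes taken by name. Some Rpl21 copies outside the name rule were also low in control library 3. There Gm10163 measured 0.195 RPKM, against 17.7 to 44.3 RPKM elsewhere, and Gm10240 measured 2.03 RPKM, against 51.7 to 89.3 RPKM elsewhere. Others, such as Gm14648, were within the range.

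**Figure D5:**
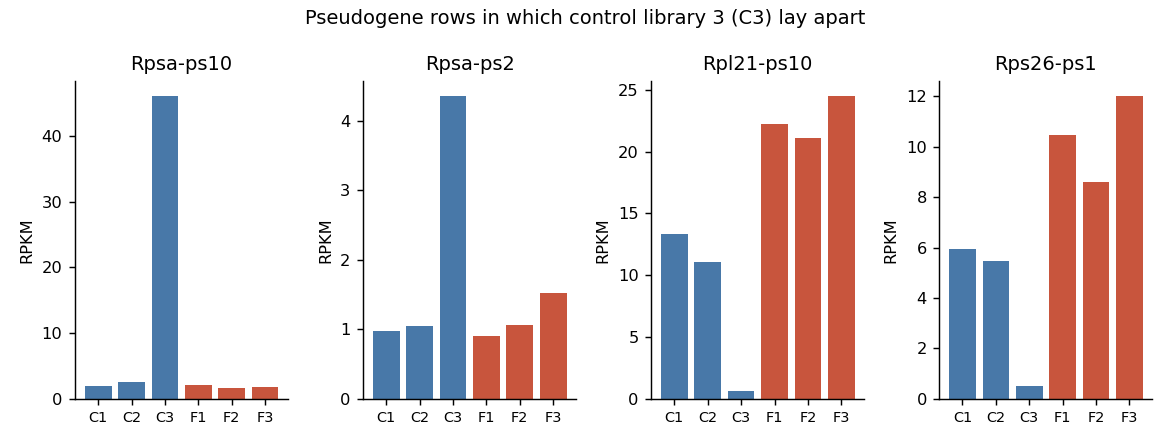
RPKM in each of the 3 control (C1 to C3, blue) and 3 fibrinogen (F1 to F3, red) libraries for 4 pseudogene rows, each with its own scale from 0. Control library 3 is high in Rpsa-ps10 (46.1 RPKM, against 2.6 or less elsewhere) and Rpsa-ps2, and low in Rpl21-ps10 (0.634 RPKM) and Rps26-ps1 (0.521 RPKM).

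The 153 pseudogene rows under the minimum were not tested. Of these, 61 had at least 20 reads in all, and those with the most reads had 86 to 164. Rpl3-ps2, on chromosome X, had 22, 34 and 26 reads in control and 20, 28 and 34 in fibrinogen libraries. Rpl5-ps1 had 26, 30 and 31 against 18, 30 and 27 reads, and Rps19-ps6 16, 24 and 10 against 20, 7 and 17 reads. Rpl5-ps2 ranged from 6 to 35 reads in control and 9 to 15 in fibrinogen libraries, Rpl9-ps4 from 14 to 24 and 10 to 14, and Rpl27-ps1 from 10 to 14 and 14 to 20. In RPKM, the groups overlapped in 3 of these 6 rows. Over all tested rows the groups lay apart in 35.1%. In reads, the groups of Rpl5-ps1 overlapped, and those of Rpl9-ps4 and of Rpl27-ps1 met at 14 reads, so RPKM ranges that lie apart say little here. The RPKM ranges lay apart in Rpl5-ps1 (0.76 to 0.859 RPKM in control and 0.549 to 0.755 RPKM in fibrinogen libraries), in Rpl9-ps4 (0.566 to 1.08 and 0.419 to 0.544) and in Rpl27-ps1 (0.573 to 0.879 and 0.936 to 1.1). No pseudogene row was read in every library of one group and in no library of the other.

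Rows that are not ribosomal were set beside the pseudogenes. Among 383 other rows with a -ps name, 51 were tested, 5 passed as higher and 4 as lower (17.6%), among them Tmem181b-ps, which rose from 0.362, 0.398 and 0.307 RPKM to 7.76, 12.8 and 8.41 RPKM (log2 change 2.95, SE 0.17, adjusted p = 0.000447). Tmem181b-ps, Tmem181c-ps and Calr-ps reached the minimum through fibrinogen libraries alone, and Pcna-ps2 and Hmgb1-ps8 through control libraries alone. Of 16 rows of genes known to vary between inbred strains or C57BL/6 substrains, a list chosen with earlier results of these data known, 14 were tested and 5 passed as higher and 2 as lower (50%, against 11.5% of all rows). Of these 7 rows 6 lie on chromosome 17, 4 of them Tmem181 and Dynlt1 genes, and Tmem181b-ps and Tmem181c-ps are also among the other -ps rows. Glo1, the glyoxalase gene that is duplicated in some strains, fell from 26.1, 26.8 and 26 RPKM to 17.6, 16.5 and 16.2 RPKM (log2 change -0.62, SE 0.07, adjusted p = 0.00406). Dynlt1b, a dynein light chain gene on chromosome 17, rose from 1.7, 1.63 and 2.59 RPKM to 8.81, 9.55 and 9.83 RPKM (log2 change 1.82, SE 0.13, adjusted p = 0.00093). Nnt, which lacks exons in C57BL/6J but not in C57BL/6N mice, did not pass (1.82, 1.96 and 1.9 RPKM against 2.43, 2.18 and 2.35 RPKM, adjusted p = 0.159). Whether the groups differed in genetic background was not tested, and the labels name 1 strain for all libraries.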

How the data were processed

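RNA was measured in 6 mouse libraries, 3 control and 3 fibrinogen, grouped by their titles. Per the labels' processing notes, the authors used edgeR 3.12.1, featureCounts 1.5.1, STAR 2.7.6a and Trimmomatic 0.39, with GRCm38 as the build. The paper's methods give a different STAR release and build. Of 202 pseudogene rows found in a GRCm38.p6 RefSeq table, 202 lay at the table's position, against 4 of 202 in a GRCm39 annotation, so coordinates are those of GRCm38. The deposited values were RPKM, normalised by the authors to exon length and library size. How multi-mapping reads were handled, and with which strand setting, is not given in the sources used here. Reads of a pseudogene and its parent can have been exchanged. RPKM times length gave whole reads for 100% of values (tolerance 0.001 reads). Intervals cover counting error only.

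Groups were compared two-sided by limma 3.58.1 under R 4.3.3, with a prior variance that follows the mean, after taking log2(RPKM + 1) of rows that reached 1 RPKM in 3 or more of the 6 libraries. Fold changes on this scale understate changes of low rows. The code was tested on simulated data. Ratios and family sums used an exact permutation test over libraries (Python 3.11.15). Sequences were read from GENCODE M39 transcripts, and windows of 32 bases were counted in the GRCm39 genome. Annotated pseudogenes sharing at least 30% of windows with a parent were taken as further copies.

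Named rows were every pseudogene that passed, the 10 most abundant tested, the 6 with most reads under the minimum, their parents, and the overlapping and nearest tested rows. One pseudogene that passed is not reported here. The members and lists were chosen with earlier results of these data known. Alternatives changed the pseudocount, filter, scaling, prior, library weights, threshold and unit (limma-voom on recovered reads), added the replicate block, and left out each library. One, limma-voom on 50% of the reads, was added after the data were seen.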

Additional observations from a re-analysis of the deposited data

How the results depend on the processing

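Against 9 of 51 pseudogene rows that passed, the count was 4 of 193 without a filter (2.07%, against 2.89% of all rows). It was 4 of 20 with a mean of at least 5 RPKM (20%, against 13.9%) and 4 of 51 with the replicate block (7.84%, against 4.08%). It was 3 of 51 (5.88%) at an adjusted p under 0.01 (2.18% of all rows) or with a log2 change of at least 1 (1.49%). Leaving out 1 library gave 4 to 11 (7.84% to 21.6%, against 3.17% to 15.6% of all rows). For parents (3) the counts were 1 without a filter, with the replicate block, under 0.01 and with a log2 change of at least 1. They were 17 with array weights (30.4%, against 27.5% of all rows), and 1 to 8 with a library left out. For other -ps rows (9) they were 1 with a mean of at least 5 RPKM, 5 with the replicate block and under 0.01, 2 with a log2 change of at least 1, and 5 to 11 with a library left out. For all rows (1689) they were 935 without a filter, 1052 with a mean of at least 5 RPKM, 4041 with array weights, 600 with the replicate block, 320 under 0.01, 219 with a log2 change of at least 1, and 466 to 2300 with a library left out. More rows were tested without a filter, fewer rows or libraries were tested in some other settings, and otherwise the cause was not tested. The replicate numbers did not pair the libraries: correlations of same-numbered deviations were 0.06, -0.24 and -0.07, and 0 of 6 libraries correlated best with its own number.

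Both pseudocounts gave 8 pseudogene calls, scaling by median of ratios or quantiles and a constant prior gave 9. Array weights gave 13 (25.5%, against 27.5% of all rows). With limma-voom there were 7 on the same rows (13.7%, against 13.8%), 6 on rows with at least 10 reads (7.89%, against 11.6%) and 7 on 50% of the reads. Rps24-ps3 and Rpl35a-ps2 passed under each alternative in which they were tested at a threshold of 0.05, with log2 changes of 3.29 to 3.62 and up to 1.18, as did Rpl21-ps8 (-6.62 to -2.14), which was tested only because of its control libraries. No named row that had passed changed direction. Of 301 values of named pseudogenes under alternatives, 256 stayed on their side of the threshold, 42 lost a call and 3 gained one. For named parents these were 283, 14 and 8 of 305. Ratios to the parent did not overlap between groups in 18 pairs, in 16 on recovered reads and in 15 of 50 without a pseudocount. Rows of 2 to 30 reads a library, such as Rps13-ps5, limit what can be seen, and reads shared between copy and parent cannot be reassigned from these values.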
